A study of Mus musculus with 6 samples.

Results

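The nuclear genome encodes most protein subunits of the mitochondrial respiratory chain, and 49 of these genes were followed here in hippocampus with and without Trpc4, the gene of a receptor-operated cation channel. The genes were listed by name as subunits of complexes I to IV, and a gene was measured where a probe set named it and no other gene, the brightest such probe set standing for the gene. By this rule 45 of the 49 genes were measured, among 22180 genes in all. They comprised 30 genes of complex I, 4 of complex II, 6 of complex III and 5 of complex IV. Ndufb2, Ndufb4, Ndufs6 and Cox6c were not measured, because the probe sets naming them also named Adck2, Ndufb4b and Ndufb4c, Ndufs6b, or Gm6265.

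Male mice on the C57BL/6J strain background were compared at postnatal day 56. The 3 wild-type samples carried intact Trpc4 and the 3 knockout samples a deletion of it, and the labels name no other allele and no treatment. Hippocampal RNA of each sample was read on 1 Affymetrix array, and all values are log2 signals made with RMA. The labels do not say which cells or exons the deletion covers, nor whether the replicates came from different animals. Any p-value or interval here therefore reflects how much these 6 samples scatter, and that scatter may be technical.

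The respiratory chain is a row of large complexes in the inner mitochondrial membrane. Complex I takes electrons from NADH and complex II from succinate, both pass them through ubiquinone to complex III, and cytochrome c carries them on to complex IV, where oxygen is reduced. Complexes I, III and IV pump protons, and the ATP synthase, complex V, uses the resulting gradient to make ATP. Every subunit of complex II, and most of those of the other complexes, is made from nuclear genes, while the mitochondrial genome supplies a small core. Neurons spend much of this ATP on ion pumping, so brain tissue is rich in these transcripts.

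The factor NRF1 and the ETS-family factor GABP are known to bind promoters of many of these genes, so the promoters were searched for both motifs. The letters searched were the NRF1 core, GCGCA followed directly by TGCGC, which is its own reverse complement, and the ETS motif CCGGAAG on either strand. The window was the 250 bases before the annotated start in RefSeq promoters of build GRCm38.p6, which held 36 of the 45 measured members. The NRF1 core stood before 1 of the 36 genes (2.78%), against 1.23% of the 16990 tested genes with a promoter entry. The ETS motif stood before 4 of the 36 (11.1%), against 10% of those genes. The remaining 31 members with an entry held neither exact motif. The median GC content over all 36 members was 57.9%, and that of the tested genes 55.6%. No promoter entry was found for Ndufa2, Ndufb9, Ndufs1, Sdhc, Uqcrc2, Uqcrb, Uqcrq, Cyc1 and Cox4i1. The 5 members with a match are printed here, each as 60 bases read 5′ to 3′ on the gene's strand, with the motif letters in capitals, because they are the whole of what these letters mark in the list. The Ndufa11 window lies on the plus strand at chr17:56717677-56717736, Ndufb7 on the plus strand at chr8:83566698-83566757, Sdhd on the minus strand at chr9:50603863-50603922, Ndufb6 on the minus strand at chr4:40279612-40279671 and Ndufs3 on the minus strand at chr2:90904722-90904781.
Ndufa11, NRF1 core: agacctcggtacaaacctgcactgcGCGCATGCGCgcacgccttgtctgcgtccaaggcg
Ndufb7, ETS: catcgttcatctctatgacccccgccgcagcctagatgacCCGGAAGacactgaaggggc
Sdhd, ETS on the other strand: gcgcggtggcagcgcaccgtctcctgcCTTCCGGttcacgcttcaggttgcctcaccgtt
Ndufb6, ETS on the other strand: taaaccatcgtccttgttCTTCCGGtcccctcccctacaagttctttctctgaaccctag
Ndufs3, ETS: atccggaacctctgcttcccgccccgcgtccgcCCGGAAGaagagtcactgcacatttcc

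Trpc4 itself was lower in the knockout samples, although the sources used here do not say whether its probe set lies in the deleted part. It read 8.06, 8.23 and 8.06 in wild-type replicates 1 to 3 and 7.39, 7.55 and 7.31 in knockout replicates 1 to 3. Every knockout sample lay below every wild-type sample, with a difference of -0.70 ± 0.09 (standard error) and an adjusted limma p of 0.738 over all genes tested. Array medians lay between 4.73 and 4.75, and Pearson's r over probe sets was 0.985 to 0.988 for each pair of arrays. All 10 hippocampal markers examined, among them Prox1 and Neurod6, were brighter than the median of all probe sets (4.72). So were 12978 of the 22180 genes tested.

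Knockout hippocampus held these transcripts at almost the same signals as wild type. Of the 45 measured genes, 22 had a higher mean in knockout and 23 a lower one, and the median difference was -0.0028 on the log2 scale. Over all genes tested 54.9% were higher and the median was 0.01. The limma test called 0 of the 45 genes at an adjusted p of 0.05, where it called 0% of all genes, and the members' adjusted p ran from 0.853 upwards. It did not call Trpc4 either, so 0 called in any list below does not set that list apart. At an unadjusted p under 0.05 there were 0 members, beside 5.75% of all genes. The wild-type and knockout samples did not overlap for 3 of the 45 genes (6.67%), against 10.9% of all genes. The knockout was the higher group in 1 of these 3, Ndufb10 (6.41% of all genes), and the lower in Sdhc and Cox4i1 (4.45% of all genes). In 38 of the 45 genes the difference was under 0.1 in size, and in 12 it was larger than its standard error.

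**Figure D1:**
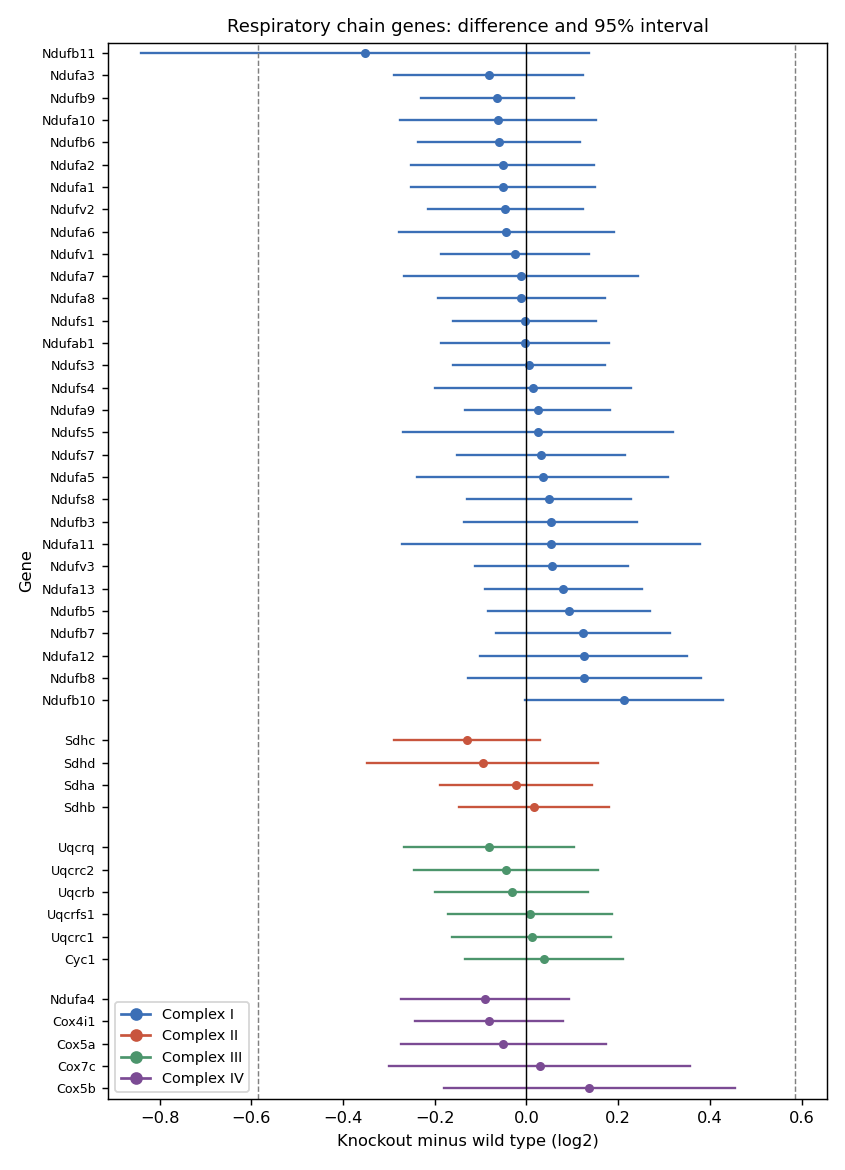
Difference between knockout and wild type on the log2 scale (horizontal axis) for each of the 45 measured genes (vertical axis), coloured by complex; points are differences of the means of 3 samples each, and bars are 95% intervals of the limma fit. All 45 bars cross 0, and the bar of Ndufb11 alone passes a dashed line, which marks a 1.5-fold difference in either direction.

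The 95% intervals rest on the scatter of these samples, which may be technical, so they may not bound a genotype difference between animals. Within that limit, the differences in signal of most members were bounded within 1.5-fold. A bound on signal is not a bound on RNA, above all for dim probe sets such as that of Cox7c, since signal over background was not assessed. The 95% interval lay wholly inside a 1.5-fold difference in either direction for 44 of the 45 genes (97.8%), the exception being Ndufb11. For 25 genes (55.6%) it lay inside a 1.2-fold difference. The same shares over all genes tested were 91.7% and 27.8%, and over the 12978 tested genes brighter than the median of all probe sets they were 96.6% and 39.3%. The members' median within-group SD was 0.07, against 0.12 over all genes and 0.10 over those brighter genes. Among the members, Ndufs1 had the smallest within-group SD (0.0081 over both groups) and Ndufb11 the largest (0.33).

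In wild type the signals of complex I genes ran from 4.88 to 10.49 with a median of 7.44. Those of complex II ran from 7.49 to 10.12 (median 7.63), of complex III from 5.95 to 9.87 (median 8.45) and of complex IV from 4.54 to 10.01 (median 8.60). Probe sets differ in how brightly they report the same amount of RNA, so these levels place each gene on its own scale and do not rank the genes or complexes by transcript number. Of the 45 genes, 44 lay above the median of all probe sets, and Cox7c did not. By the same rule 12978 of the 22180 genes tested lay above it. The 3 dimmest, Cox7c, Ndufs5 and Ndufb11, had signals below 5.3 and standard errors of 0.13 to 0.21, and the other 42 had standard errors of 0.07 to 0.14. Across the 45 genes, which share the same 6 arrays, Spearman's rho between mean signal and standard error was -0.38.

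**Figure D2:**
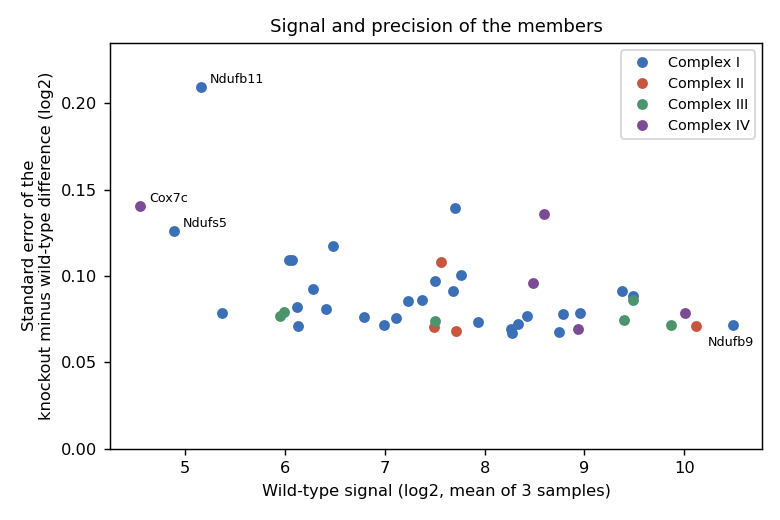
Standard error of the knockout minus wild-type difference (vertical axis, log2) against the mean wild-type signal (horizontal axis, log2) for the 45 genes, coloured by complex. The 3 labelled genes on the left, with signals below 5.3, have standard errors of 0.13 to 0.21, while Ndufb9, the brightest, has one of 0.07.

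The core subunits of complex I, most of which hold its flavin or iron-sulfur clusters, had small differences in both directions. Of its 6 measured genes 3 were higher and 3 lower, between -0.05 and 0.05, and 0 were called. Ndufv1 encodes the subunit that binds the flavin and oxidises NADH, and it went from 8.26 ± 0.04 in wild type to 8.24 ± 0.01 in knockout (SD, n = 3 each). Ndufs1, the largest subunit and a carrier of iron-sulfur clusters, read 8.27, 8.29 and 8.27 in wild-type replicates 1 to 3 and 8.28, 8.27 and 8.27 in knockout replicates 1 to 3. These 6 values overlapped within 0.02, and the difference was -0.0042 with a 95% interval of -0.16 to 0.15. Ndufs7, next to the ubiquinone site, differed by 0.03, and Ndufs8, another iron-sulfur subunit, by 0.05. Ndufv2 differed by -0.05 and Ndufs3, which joins the quinone-reducing part, by 0.0052. The intervals of all 6 genes lay between -0.22 and 0.23, inside a 1.2-fold difference.

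The accessory NDUFA subunits and Ndufab1, which surround that core, were lower for 8 of 13 genes and higher for 5, with a median of -0.01 and 0 called. Without wild-type replicate 2, 5 were lower and 8 higher (median 0.0104), and without knockout replicate 3, 6 were lower and 7 higher (median 0.0207). Ndufa12, of the peripheral arm, had the largest positive difference, and read 7.46, 7.62 and 7.43 in wild-type replicates 1 to 3 and 7.78, 7.55 and 7.55 in knockout replicates 1 to 3. Knockout replicate 1 was its highest sample and the groups overlapped (0.12 ± 0.10, adjusted p 0.907 in limma). Ndufa3, a small subunit of the membrane arm, read 9.39, 9.57 and 9.51 in wild type and 9.38, 9.52 and 9.33 in knockout. Ndufa10, which resembles nucleoside kinases, read 9.33, 9.52 and 9.28 in wild type and 9.39, 9.24 and 9.31 in knockout. Both overlapped between the groups, with differences of -0.08 ± 0.09 and -0.06 ± 0.09. Ndufa13, also known as GRIM-19, differed by 0.08, and Ndufab1, the mitochondrial acyl carrier protein, by -0.0028. The X-linked gene Ndufa1 differed by -0.05 and Ndufa2 by the same amount. Ndufa5, Ndufa6, Ndufa7, Ndufa8, Ndufa9 and Ndufa11 lay between -0.04 and 0.05.

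A second probe set named some of these genes, dimmer than the one used. For Ndufa8 the differences were -0.01 in the brighter and 0.04 in the dimmer probe set, and for Ndufa12 they were 0.12 and 0.20. For Ndufa11 they disagreed, at 0.05 in the brighter probe set and -0.51 in the dimmer one, whose mean signal was 4.30.

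The NDUFB subunits, which build the far end of the membrane arm, held the widest differences of the list. Their median was 0.07 over 8 measured genes, of which 5 were higher, 3 lower and 0 called. Ndufb10, a subunit on the intermembrane-space side, read 6.37, 6.31 and 6.17 in wild-type replicates 1 to 3 and 6.63, 6.45 and 6.41 in knockout replicates 1 to 3. All 3 knockout samples were above all 3 wild-type samples, by 0.21 ± 0.09 in the mean (95% interval -0.0024 to 0.43). This was the largest positive difference and the smallest unadjusted p of the 45 genes, at 0.0520, with an adjusted limma p of 0.853. An exact two-sided permutation test gave 0.1, the smallest p that 3 against 3 samples allow. Groups of 3 that do not overlap always give this p, so it adds nothing to their separation. Without wild-type replicate 1 the difference was 0.26, and without knockout replicate 1 it was 0.15. Ndufb11, an X-linked gene of the same arm, read 5.21, 5.35 and 4.91 in wild type and 4.70, 4.45 and 5.26 in knockout. Knockout replicate 3 lay among the wild-type samples and the other two knockout samples below them. The mean difference was -0.35 ± 0.21 (95% interval -0.84 to 0.14, adjusted p 0.883 in limma), and it ran from -0.17 without knockout replicate 2 to -0.58 without knockout replicate 3.

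The other NDUFB genes had smaller differences. Ndufb8 read 5.94, 6.29 and 5.98 in wild type and 6.22, 6.26 and 6.11 in knockout, a difference of 0.13 ± 0.11. Ndufb7, another subunit of the intermembrane-space side, read 6.23, 6.11 and 6.03 in wild type and 6.24, 6.29 and 6.21 in knockout, a difference of 0.12 ± 0.08. Ndufb5 read 6.82, 6.79 and 6.75 in wild type and 6.80, 6.88 and 6.96 in knockout, a difference of 0.09 ± 0.08. In all 3 genes the groups overlapped. For Ndufb7 and Ndufb5, 1 wild-type sample lay above the lowest knockout sample, and for Ndufb8 wild-type replicate 2 was the highest of all 6. Ndufb9 had the brightest probe set of complex I, and read 10.53, 10.46 and 10.47 in wild type and 10.37, 10.44 and 10.47 in knockout. Ndufb6 read 7.17, 7.02 and 7.14 in wild type and 7.03, 7.06 and 7.07 in knockout. Both differed by -0.06 with overlapping groups, and Ndufb3 by 0.05. Of the remaining accessory subunits, Ndufs4, whose loss is used in mice as a model of Leigh syndrome, differed by 0.01 and Ndufv3 by 0.05. Ndufs5, the dimmest of complex I, read 5.06, 4.75 and 4.84 in wild type and 4.96, 5.08 and 4.69 in knockout, which overlapped fully.

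Complex II, the succinate dehydrogenase that also serves the citric acid cycle, was lower for 3 of its 4 genes, with a median of -0.06 and 0 called. Without knockout replicate 2, 1 gene was lower and 3 were higher, with a median of 0.0029. Sdhc, a membrane anchor that helps to hold heme and ubiquinone, read 7.67, 7.72 and 7.73 in wild-type replicates 1 to 3 and 7.58, 7.59 and 7.57 in knockout replicates 1 to 3. Every knockout sample lay below every wild-type sample, and each group was tight. The difference was -0.13 ± 0.07 (95% interval -0.29 to 0.03), so that the knockout signal was 91.4% of wild type. In limma the unadjusted p was 0.0948 and the adjusted p 0.874. Leaving out any single sample gave -0.15 to -0.12. Sdhd, the other anchor, read 7.57, 7.47 and 7.64 in wild type and 7.49, 7.27 and 7.63 in knockout, a difference of -0.10 ± 0.11. Its low value in knockout replicate 2 carried the mean, which was 0.0027 without that sample. Sdha, the flavoprotein that oxidises succinate, read 10.13, 10.10 and 10.12 in wild type and 10.09, 10.04 and 10.15 in knockout. Sdhb, the iron-sulfur subunit, read 7.46, 7.48 and 7.54 in wild type and 7.48, 7.52 and 7.53 in knockout. Both overlapped, at -0.02 ± 0.07 and 0.02 ± 0.07, and all 4 intervals of the complex lay inside a 1.5-fold difference.

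**Figure D3:**
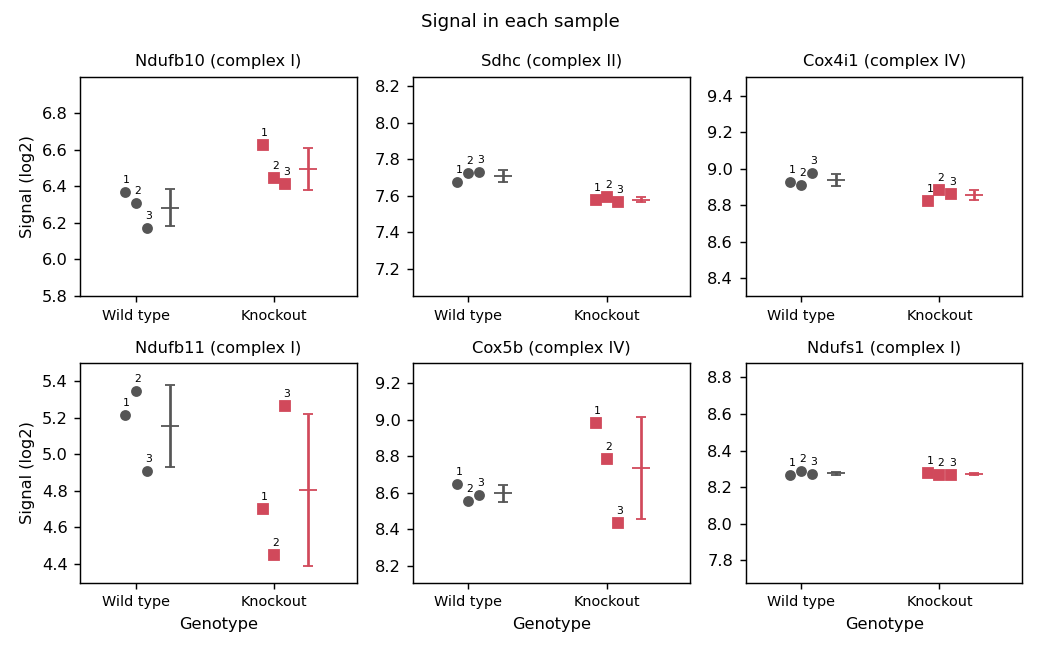
Signal (vertical axis, log2, the same span of 1.2 units in every panel) of 6 genes in each wild-type sample (grey circles) and knockout sample (red squares), numbered by replicate, with the mean and SD of each group of 3 beside them. Ndufb10, Sdhc and Cox4i1 have groups that do not overlap, Ndufb11 and Cox5b have knockout samples on both sides of a wild-type sample, and the 6 values of Ndufs1 lie within 0.02.

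Complex III, which passes electrons from ubiquinol to cytochrome c, showed 3 genes higher and 3 lower, between -0.08 and 0.04, with 0 called and 0 with separate groups. Over all genes tested 10.9% had separate groups, and 6 genes are too few to set against that share. Uqcrfs1, the Rieske iron-sulfur protein, read 5.87, 6.00 and 5.97 in wild type and 5.94, 5.91 and 6.03 in knockout. Cyc1, cytochrome c1, read 7.50, 7.56 and 7.46 in wild type and 7.58, 7.57 and 7.48 in knockout. These catalytic subunits differed by 0.0074 ± 0.08 and 0.04 ± 0.07, with interleaved samples. The core proteins Uqcrc1 and Uqcrc2 face the matrix. Uqcrc1 read 9.46, 9.42 and 9.33 in wild type and 9.37, 9.42 and 9.45 in knockout, and Uqcrc2 read 9.37, 9.51 and 9.57 in wild type and 9.34, 9.49 and 9.49 in knockout. They differed by 0.01 ± 0.07 and -0.05 ± 0.09. Among the small subunits, Uqcrb read 9.81, 9.88 and 9.90 in wild type and 9.87, 9.84 and 9.79 in knockout. Uqcrq read 5.94, 5.98 and 6.05 in wild type and 5.95, 5.81 and 5.96 in knockout, the largest difference of the complex at -0.08 ± 0.08. The 95% intervals of all 6 genes lay between -0.27 and 0.21.

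Complex IV, cytochrome c oxidase, was lower for 3 of its 5 measured genes, with a median of -0.05 and 0 called. Without wild-type replicate 3, 2 were lower and 3 higher, with a median of 0.0418. Cox4i1, the common isoform of its largest nuclear subunit, read 8.93, 8.91 and 8.98 in wild-type replicates 1 to 3 and 8.83, 8.88 and 8.86 in knockout replicates 1 to 3. All 3 knockout samples were below all 3 wild-type samples by a small margin. The difference was -0.08 ± 0.07 (95% interval -0.24 to 0.08), with an unadjusted p of 0.272 and an adjusted p of 0.913, both in limma. Ndufa4, first named as a complex I subunit and now assigned to complex IV, read 9.91, 10.04 and 10.09 in wild type and 9.88, 9.92 and 9.95 in knockout, a difference of -0.09 ± 0.08. Cox5a read 8.42, 8.37 and 8.67 in wild type and 8.47, 8.43 and 8.41 in knockout. In both genes the groups overlapped, and the Cox5a difference of -0.05 became 0.04 without wild-type replicate 3.

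Cox5b, a subunit that binds zinc, had the largest positive difference of complex IV and the least even knockout group. It read 8.65, 8.56 and 8.58 in wild type and 8.98, 8.78 and 8.43 in knockout, so that knockout replicate 3 was the lowest of all 6 samples and the other two knockout samples the highest. The difference of 0.14 ± 0.14 was 0.29 without knockout replicate 3 and 0.01 without knockout replicate 1. A dimmer probe set for Cox5b, with a mean of 4.50, differed by 0.06. Cox7c read 4.50, 4.29 and 4.84 in wild type and 4.48, 4.67 and 4.57 in knockout, with all knockout values inside the wild-type range.

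The score of a sample, the mean over genes of its deviation from each gene's mean, summed the list up without a test. Over the 45 genes it was 0.0030, 0.01 and -0.0087 in wild-type replicates 1 to 3 and 0.02, -0.01 and -0.0087 in knockout replicates 1 to 3. The groups interleaved within a total range of 0.03, and their means differed by -0.0034. The sign of this difference also turned, from -0.0123 without knockout replicate 1 to 0.0019 without knockout replicate 2. Over all genes tested the same score differed by 0.0106, with groups that did not overlap. By complex, the score difference was 0.0080 for complex I, -0.06 for complex II, -0.02 for complex III and -0.01 for complex IV, and in each the groups overlapped. Leaving out single samples moved these differences between -0.0134 and 0.0208 for complex I, the lowest being without wild-type replicate 3 and the highest without wild-type replicate 2. They ran from -0.0885 (without knockout replicate 3) to -0.0302 (without knockout replicate 2) for complex II, and from -0.0369 (without wild-type replicate 1) to -0.0036 (without wild-type replicate 2) for complex III. For complex IV they ran from -0.0528 without wild-type replicate 2 to 0.0473 without wild-type replicate 3. The sign thus turned for complexes I and IV. The widest complex II values were 0.07 in wild-type replicate 3 and -0.09 in knockout replicate 2, and the widest complex IV values were 0.12 in wild-type replicate 3 and -0.08 in wild-type replicate 2. Every array held some extremes of the list, and wild-type replicate 3 held the most in both directions. The highest value of a gene fell in wild-type replicate 3 for 11 genes and in knockout replicate 2 for 5, and the lowest in wild-type replicate 3 for 12 and in knockout replicate 1 for 5.

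**Figure D4:**
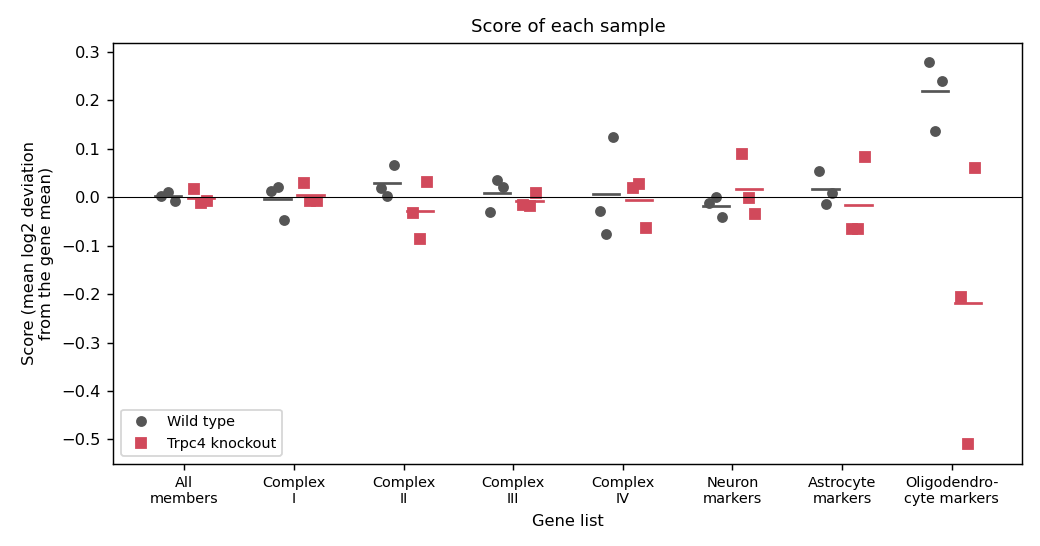
Score of each sample (vertical axis, mean log2 deviation from the gene mean) for all 45 members, for each complex and for 3 lists of cell type markers (horizontal axis); circles are wild-type samples, squares knockout samples, in the order of replicates 1 to 3, and lines are means. The members' scores stay between -0.01 and 0.02, and the oligodendrocyte markers run from -0.51 to 0.28.

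Cell type markers were read beside these scores, because a bulk sample cannot tell fewer cells of a type from less RNA per cell. Oligodendrocyte markers were lower in knockout for 9 of 9 genes, with a median of -0.44 and 0 called. All 9 had an unadjusted p under 0.05, against 5.75% of all genes, and 8 of the 9 had groups that did not overlap, against 10.9% of all genes. Without single samples 5 to 9 had an unadjusted limma p under 0.05, and with array weights 7. The median then ran from -0.58 without knockout replicate 3 to -0.31 without knockout replicate 2, and all 9 genes stayed lower. Their score was 0.28, 0.14 and 0.24 in wild-type replicates 1 to 3 and -0.21, -0.51 and 0.06 in knockout replicates 1 to 3. In the same samples the respiratory chain scores spanned 0.03. Neuron markers were higher for 6 of 10 genes (median 0.03) and astrocyte markers for 4 of 10 (median -0.0062), with overlapping scores in both. Hippocampal markers were higher for 8 of 10 genes (median 0.10), with 0 called. At an unadjusted p under 0.05 were C1ql2 (0.28 ± 0.11, overlapping groups) and Wfs1 (-0.25 ± 0.08, groups that did not overlap), both named after their values were seen. Microglia markers were higher for 4 of 9 genes and endothelial markers for 2 of 8. Choroid plexus markers were lower for 6 of 7 genes, and 3 of the 7 were brighter than the median of all probe sets. At an unadjusted limma p under 0.05 were the endothelial marker Abcb1a (-0.26 ± 0.09, groups that did not overlap) and the choroid plexus marker Ttr (-0.43 ± 0.18, overlapping groups). These were likewise named after their values were seen. The part of cell makeup in the members' values was not tested.

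The rest of the oxidative machinery was read from lists of related genes, and 0 of their genes were called. Subunits of complexes I to IV outside the 49 were lower for 11 of 16 measured genes, with a median of -0.03. This median ran from -0.0515 without knockout replicate 1 to -0.0041 without wild-type replicate 1, and 9 to 11 genes were lower. Of these, Cox6a2, the isoform known from muscle, had the smallest unadjusted p, and read 5.44, 5.85 and 5.93 in wild type and 5.70, 5.26 and 5.02 in knockout (-0.42 ± 0.19, adjusted p 0.857 in limma). Its groups overlapped. Cox4i2, the alternative isoform to Cox4i1, differed by 0.14 ± 0.10.

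Complex V, the ATP synthase, was lower in most genes by small amounts. Of 18 genes measured, counting the inhibitor Atpif1 and the coupling factor relative Dmac2l, 16 were lower and 2 higher, where 45.1% of all genes were lower. The median difference was -0.05 and the range -0.11 to 0.03. Atp5g3, a gene of the membrane ring, differed by -0.09 ± 0.08, and Atp5c1, of the central stalk, by -0.10 ± 0.11. With single samples left out the count lower ran from 13 to 16, and it was 16 with quantile normalization and with median centring. The complex V scores overlapped, at 0.05, -0.0062 and 0.02 in wild type and -0.03, 0.02 and -0.06 in knockout. No test of the list was made, and genes of a list are not independent.

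Assembly factors, which build the complexes, were higher for 21 and lower for 22 of 43 genes, with a median of -0.0026. In this list 3 genes had an unadjusted p under 0.05, again with 5.75% of all genes as the background. Nubpl, which delivers iron-sulfur clusters to complex I, read 5.07, 4.94 and 5.08 in wild type and 4.65, 4.78 and 4.73 in knockout, a difference of -0.31 ± 0.08 (unadjusted p 0.00511, adjusted p 0.849 in limma). Cox10, which makes a precursor of the heme of complex IV, read 6.68, 6.66 and 6.56 in wild type and 6.93, 7.07 and 6.85 in knockout, a difference of 0.32 ± 0.09 (unadjusted p 0.00632, adjusted p 0.849 in limma). Both genes had groups that did not overlap, in opposite directions. Groups did not overlap in 5 of the 43 genes (11.6%), close to the 10.9% of all genes. Acad9 and Surf1, named here after their values were seen, and Cox18 were the others, all lower in knockout. Cox18, an insertase for complex IV that is named here after its values were seen, differed by -0.34 ± 0.12 (unadjusted p 0.0225, adjusted p 0.853 in limma).

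Genes upstream of the chain were close to wild type as well. Citric acid cycle and pyruvate dehydrogenase genes were lower for 10 of 16 genes, with a median of -0.01, which ran from -0.0201 to 0.0035 without single samples. Suclg1, a subunit of succinyl-CoA ligase, differed by -0.13 ± 0.08 and Pdhx, of the pyruvate dehydrogenase complex, by -0.09 ± 0.07. Groups did not overlap in 4 of the 16 genes (25%), against 10.9% of all genes. These were Suclg1 and Pdhx, lower in knockout, and Ogdh (0.07 ± 0.07) and Pdhb (0.07 ± 0.07), higher in knockout and named here after their values were seen. Regulators of nuclear-encoded respiratory genes were lower for 9 of 14, with a median of -0.03. Gabpb1, a subunit of GABP, read 5.52, 5.62 and 5.58 in wild type and 5.43, 5.45 and 5.46 in knockout (-0.13 ± 0.07, adjusted p 0.875 in limma). Groups did not overlap in it alone of the 14 genes (7.14%), against 10.9% of all genes. Tfb2m, a mitochondrial transcription factor, differed by -0.18 ± 0.10, with groups that overlapped.

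**Figure D5:**
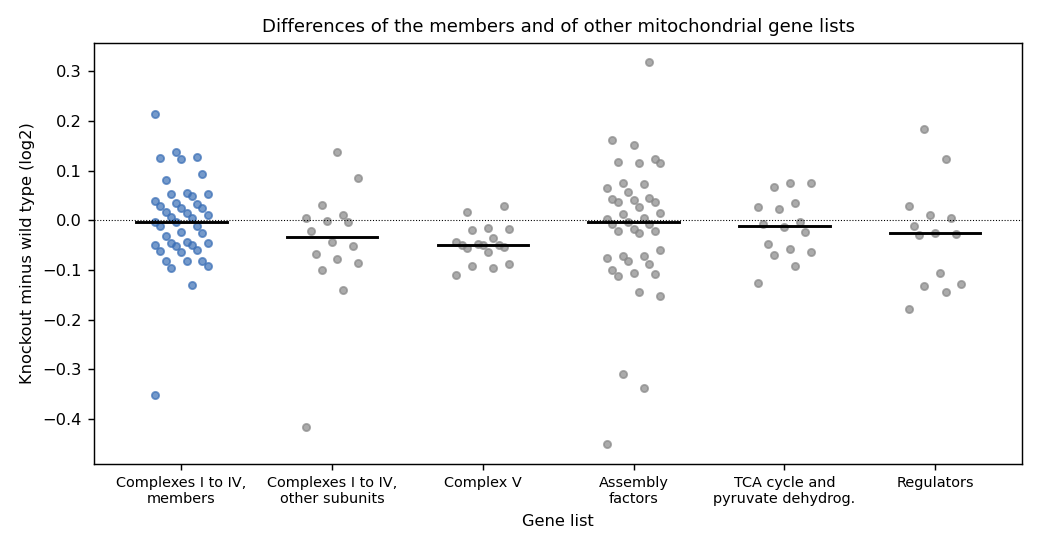
Difference between knockout and wild type (vertical axis, log2) for each measured gene of the 45 members (blue) and of 5 other mitochondrial gene lists (grey; horizontal axis); lines are medians and sideways offsets only separate points. Medians lie between -0.05 for complex V and -0.0026 for assembly factors, and the members' median is -0.0028.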

How the data were processed

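Total RNA of 3 wild-type and 3 knockout hippocampal samples was hybridised to 1 array each. The authors deposited log2 values. The submitters' processing notes name RMA and Affymetrix Power Tools. Of versions and genome build, the sources used here say nothing. RMA brings the arrays close to one distribution, which can hide a shift common to most genes. The deposited array medians still ran from 4.7250 to 4.7542. Of 41345 probe sets, 23521 named 1 gene, 1814 several and 16010 none in a platform annotation, which can be old. The brightest probe set stood for each of 22180 genes, and all 45 measured members matched RefSeq by gene number.

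Genotype was the only term in limma 3.58.1 (lmFit and eBayes, R 4.3.3), with Benjamini-Hochberg adjustment over all genes at 0.05. Standard errors and 95% intervals come from that fit. The number of arrays limits the precision. In data simulated for the 22180 genes, 200 genes were changed at once, 50 each by 0.5, 1, 2 and 3 (log2). Of these, 15 of the 50 changed by 0.5 and 45 of the 50 changed by 1 were called. So were 4 of 21980 unchanged genes. The many large planted changes ease the adjusted threshold, and in the real data 0 genes were called. These shares therefore do not give the chance of a call in the real data.

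Members and lists were chosen with earlier results of these data known. In full are named, per complex, the brightest and dimmest member, the 3 largest positive and negative differences (complex I, 5) and those with separate groups, and in other lists the 2 genes of smallest p. Figures were drawn with matplotlib 3.10.9. Alternatives tried were median centring, quantile normalization, trend and robust variance, a block for replicate number, array weights, a filter on dim probe sets, the mean of a gene's probe sets, all probe sets, a threshold of 0.10 and leaving out each sample.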

Additional observations from a re-analysis of the deposited data

How the results depend on the processing

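No member was called at the adjusted threshold under any alternative run, where the lowest adjusted p of the 26 members followed was 0.705. The count over all genes was 1 with trend and robust variance (Trpc4, -0.70, adjusted limma p 0.0378), and 0 to 1 without single samples. Members at an unadjusted p under 0.05 numbered 1 with the replicate block (Ndufb10), 2 with trend and robust variance (Ndufb10 and Sdhc), 1 with only probe sets above the median (Ndufb10), and 0 to 2 without single samples. The block changed no adjusted call. Deviations of samples sharing a replicate number correlated at 0.07, 0.03 and -0.0038 over genes, and those with different numbers at -0.0615 to 0.0274. The labels do not say what the number stands for, and so few samples cannot settle whether it is a pairing. Members with separate groups numbered 4 to 12 without single samples, where fewer samples separate more easily. Medians without single samples ran from -0.0201 to 0.0206 for assembly factors and from -0.0637 to -0.0106 for regulators. With the mean of probe sets, the median of the other subunits was -0.0129. With the mean of a gene's probe sets, the median wild-type level was 7.17 for complex I and 8.49 for complex IV, since dimmer probe sets then count.

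The 26 members followed were those named in full, chosen in part for the size of their differences, which favours a steady sign. The signs of the other 19 were not followed, among them Ndufa11, whose probe sets disagreed. Of the 26 members, 16 kept their sign under every alternative and 10 did not. Uqcrfs1 was -0.0030 with quantile normalization. Without single samples, Ndufa10 ran from -0.1110 to 0.0104, Ndufs5 from -0.0616 to 0.1344, Sdha from -0.0536 to 0.0031, Sdhb from -0.0021 to 0.0414, Sdhd from -0.18 to 0.0027, Uqcrc1 from -0.0263 to 0.0417, Uqcrc2 from -0.10 to 0.0027, Uqcrfs1 from -0.0298 to 0.0337, Cox5a from -0.1101 to 0.0418 and Cox7c from -0.10 to 0.18. The cause of these turns was not tested. Cox7c had no value with the filter on dim probe sets. Without scans, signal over background was not assessed here.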
